A study of Mus musculus with 2 samples.

Results

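Small leucine-rich proteoglycans are secreted proteins of the extracellular matrix, and 9 of their genes were followed here in single cells of the mouse abdominal aorta: *Dcn* (decorin), *Lum* (lumican), *Bgn* (biglycan), *Fmod* (fibromodulin), *Ogn* (osteoglycin), *Prelp* (prolargin), *Aspn* (asporin), *Podn* (podocan) and *Omd* (osteomodulin). The genes were taken by symbol, from a list made with earlier results of these data known. All 9 were among the 33696 gene rows of both count matrices. The tissue was suprarenal abdominal aorta of male C57BL/6J mice, aged 5 months per the methods of the study and collected on day 28. The Control library came from mice given normal saline. The AngII+HS library came from mice given an angiotensin II (AngII) infusion together with salt, the treatment used to induce abdominal aortic aneurysm. Each condition was 1 droplet library of pooled tissue, stated as 5 mice per sample in the design text but as 1 Control mouse and 2 AngII+HS mice in the extraction protocol. With 1 library per condition the treatment could not be tested, and every interval below covers counting error only. The barcode list recorded with each library had as many entries as the matrix of the other library had cells, so the lists were not used to name cells. Conditions were taken from the labels of the matrices, and an exchange of the matrices would reverse every direction given here. As labelled, Control and AngII+HS held 5230 and 801 smooth muscle cells, 498 and 4471 macrophages, and 99 and 4648 neutrophils.

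Proteins of this family share a core of leucine-rich repeats that binds collagen, and most carry chondroitin, dermatan or keratan sulfate chains. They govern the diameter and spacing of collagen fibrils, and several also hold growth factors of the TGF-β family or act on cell receptors after release from the matrix. In the artery wall, decorin and lumican are known as products of adventitial fibroblasts, whereas biglycan and osteoglycin are also made by smooth muscle cells. Decorin, biglycan and asporin form class I of the family. Lumican, fibromodulin, prolargin and osteomodulin form class II, osteoglycin belongs to class III and podocan to class V.

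Several of these genes lie side by side in the mouse genome. On GRCm39, *Aspn* (ENSMUSG00000021388, chromosome 13, 49697609 to 49721057), *Omd* (ENSMUSG00000048368, 49735938 to 49746298) and *Ogn* (ENSMUSG00000021390, 49761349 to 49780412) followed each other on the plus strand, with gaps of 14.9 and 15.1 kb and no protein-coding gene between them. All 3 lay within *Cenpp*, a centromere protein gene on the opposite strand. *Dcn* (ENSMUSG00000019929, chromosome 10, 97315275 to 97358155) and *Lum* (ENSMUSG00000036446, 97400990 to 97408577) were 42.8 kb apart. *Prelp* (ENSMUSG00000041577, chromosome 1, 133837335 to 133857971, minus strand) and *Fmod* (ENSMUSG00000041559, 133964992 to 133976015) were 107 kb apart. *Bgn* (ENSMUSG00000031375, chromosome X, 72527208 to 72539541) and *Podn* (ENSMUSG00000028600, chromosome 4, 107871988 to 107889534, minus strand) lay apart from the other members. None of the 9 shared sequence on its own strand with another annotated gene.

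The promoters of the chromosome 13 genes are shown because these neighbours had lower levels in AngII+HS fibroblasts, and that of *Bgn* because its level there was higher. Each run is the 250 bases before the gene start in RefSeq on GRCm38.p6, 5′ to 3′ on the plus strand, which is the strand of all 4 genes. The windows are chr13:49544193-49544442 for *Aspn*, chr13:49582212-49582461 for *Omd*, chr13:49607765-49608014 for *Ogn* and chrX:73483351-73483600 for *Bgn*. Capitals mark TATAAA or GGGCGG read on either strand.
Aspn: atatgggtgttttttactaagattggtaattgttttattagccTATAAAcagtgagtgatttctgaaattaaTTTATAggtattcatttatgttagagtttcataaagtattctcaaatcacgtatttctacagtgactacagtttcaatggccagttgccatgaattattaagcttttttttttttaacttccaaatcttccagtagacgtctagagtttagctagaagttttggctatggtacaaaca
Omd: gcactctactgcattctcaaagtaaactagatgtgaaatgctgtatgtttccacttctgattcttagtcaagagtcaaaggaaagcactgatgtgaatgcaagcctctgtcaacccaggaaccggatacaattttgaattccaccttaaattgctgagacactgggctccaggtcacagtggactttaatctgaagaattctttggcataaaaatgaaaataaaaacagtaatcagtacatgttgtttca
Ogn: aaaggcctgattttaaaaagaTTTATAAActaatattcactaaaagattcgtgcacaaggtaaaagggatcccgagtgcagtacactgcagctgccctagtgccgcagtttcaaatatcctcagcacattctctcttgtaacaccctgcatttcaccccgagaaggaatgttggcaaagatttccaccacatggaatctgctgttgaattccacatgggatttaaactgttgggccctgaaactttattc
Bgn: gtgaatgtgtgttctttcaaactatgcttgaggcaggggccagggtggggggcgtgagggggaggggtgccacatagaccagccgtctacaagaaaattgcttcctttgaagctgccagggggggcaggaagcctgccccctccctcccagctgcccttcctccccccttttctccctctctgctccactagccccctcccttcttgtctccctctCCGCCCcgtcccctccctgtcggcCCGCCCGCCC

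The TATA box core TATAAA was searched on both strands of this window, together with the Sp1 core GGGCGG, the AP-1 core TGANTCA and the CArG box bound by serum response factor. The *Aspn* promoter held TATAAA at -207 (plus strand) and -178 (minus strand), counted from the start, and the *Ogn* promoter held it at -229 and -227 on opposite strands in an overlapping pair. TATAAA was present in 12.4% of all 32851 RefSeq promoters of this length. The *Bgn* promoter held GGGCGG at -34, -10 and -6 on the minus strand, the last pair overlapping, against 32.7% of all promoters with at least 1 match. The *Omd* promoter matched none of the 4 motifs. TGANTCA and the CArG box, found in 6.75% and 1.47% of all promoters, were in none of the promoters of the 7 members with a RefSeq entry. G and C made up 30% of the *Aspn*, 38.4% of the *Omd* and 42.0% of the *Ogn* window against a median of 52.4% over all promoters, and 64.4% of the *Bgn* window. *Dcn* and *Lum* were not in the promoter table.

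After filtering, the Control library held 10269 cells (median 7265 UMIs, unique molecular identifiers that count RNA molecules) and the AngII+HS library 19734 cells (median 3069.5 UMIs). The 2 barcode lists shared 67 entries. Fibroblasts were split by fixed markers into Pi16/Dpp4 fibroblasts (136 Control and 92 AngII+HS cells), Postn/Cthrc1 fibroblasts (239 and 2076) and other fibroblasts (2124 and 2154). *Dpp4* stood at 166 and 134 CPM (UMI counts for every 1000000 UMIs of a group) in the Pi16/Dpp4 group but at 1.73 and 0.608 CPM in the Postn/Cthrc1 group. The genes that name the Postn/Cthrc1 group did not set it apart from the Pi16/Dpp4 group: *Postn* was at 138 and 470 CPM against 115 and 495 CPM, and *Cthrc1* at 14.7 and 136 CPM against 9.16 and 107 CPM. *Postn* was higher in smooth muscle, at 646 and 1616 CPM, and the listed marker *Lrrc15* was nearly absent (0.866 and 0.608 CPM). Of its other markers, *Tnc* stood at 20.8 and 345 CPM against 5.50 and 19.2 CPM in Pi16/Dpp4 cells, and *Ltbp2* at 26.8 and 359 CPM against 38.5 and 5.76 CPM. The group is called by its marker list below. Smooth muscle cells (5230 and 801) carried *Myh11* at 3295 and 2809 CPM, and arterial endothelial cells (485 and 402) carried *Gja5* at 553 and 537 CPM. The smooth muscle group took in a subcluster led by *Smoc2*, *Igkc* and *Igfbp2* (33 and 117 cells). Its marker score was -1.15 for smooth muscle and 0.41 for pericytes. The *Vcam1*-led subcluster scored -1.23 and -0.21. The *Smoc2*-led cells were too few in Control for the subcluster counts and weighting below, and their part in the smooth muscle ratios was not tested. The member genes were kept out of the genes used for clustering.

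A level in CPM sums all cells of a group in a library. UMIs are counted at 1 end of a transcript and were not scaled by length, so levels are compared between cells and libraries but not between genes. The log2 ratio is AngII+HS over Control, with a 95% exact interval. A gene counts as higher or lower where its CPM differed at least 2-fold and it had at least 50 UMIs in that group. T, NK and B cells (232 Control and 2109 AngII+HS cells), which are not known to make these proteoglycans, served as the measure of free RNA in the droplets. In them *Dcn* was at 34.3 and 126 CPM, *Lum* at 7.27 and 61.3 CPM, *Bgn* at 82.1 and 165 CPM, and *Ogn* at 29.1 and 20.6 CPM.

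**Figure D1:**
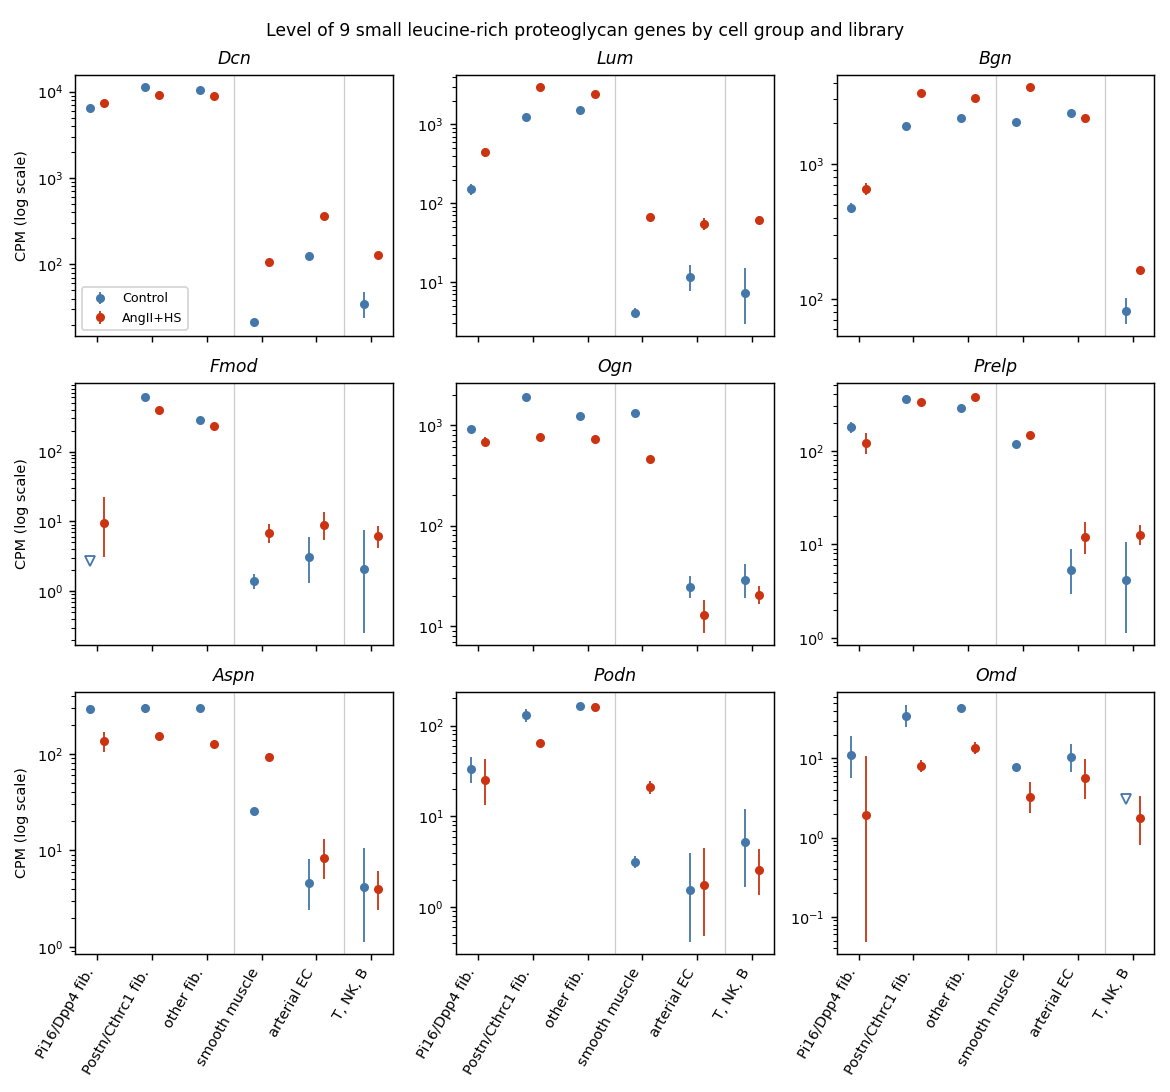
Level of each gene in CPM (log axis) in 5 aortic cell groups and in T, NK and B cells, for the Control library (blue) and the AngII+HS library (red); bars are 95% exact Poisson intervals, often smaller than the points, and an open triangle marks a level of 0 at its limit of 3 counts. *Dcn* runs from 6539 to 11276 CPM over the fibroblast groups and no higher than 367 CPM in the others, whereas *Bgn* is above 2000 CPM in smooth muscle and arterial endothelial cells of both libraries.

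In fibroblasts the family did not move as a block. *Lum* and *Bgn* were higher in the AngII+HS library, *Dcn* was nearly level, and the 3 chromosome 13 genes *Aspn*, *Omd* and *Ogn* were lower. Over all fibroblasts, 1 of the 9 members was at least 2-fold higher (*Lum*) and 2 were at least 2-fold lower (*Aspn* and *Omd*). Of the 13336 genes with at least 50 UMIs, 6.16% were higher and 6.25% were lower by the same rule. The median log2 ratio of the 9 members was -0.16, against -0.14 over all genes. Together the members made up 1.56% of all fibroblast UMIs in Control and 1.66% in AngII+HS. By group the shares were 1.78% and 1.71% in Postn/Cthrc1 fibroblasts and 1.63% and 1.61% in the other fibroblasts. In Pi16/Dpp4 fibroblasts they were 0.858% and 0.952%.

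Lumican, a keratan sulfate proteoglycan of class II, had the largest gain in fibroblasts. *Lum* was at 1316 CPM in Control fibroblasts and at 2724 CPM in AngII+HS fibroblasts, a log2 ratio of 1.05 (interval 1.02 to 1.08). In the Postn/Cthrc1 group it was at 1245 and 3002 CPM (log2 ratio 1.27) and in the other fibroblasts at 1503 and 2434 CPM (0.70). The Pi16/Dpp4 cells started from a low level, 150 CPM, and reached 443 CPM (1.56, interval 1.27 to 1.86). The AngII+HS value was thus the higher one in every fibroblast group. Postn/Cthrc1 cells made up 9.56% of Control and 48.0% of AngII+HS fibroblasts. With the 7 larger subclusters weighted to their Control mix, the log2 ratio of *Lum* was 0.78, under the 2-fold mark. Over all alternatives it ran from 0.73 to 1.2 and passed 2-fold in 13 of 17.

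Biglycan, a class I proteoglycan with 2 chondroitin or dermatan sulfate chains, was also higher. *Bgn* was at 1949 CPM in Control and 3191 CPM in AngII+HS fibroblasts, a log2 ratio of 0.71 (interval 0.69 to 0.73), under the 2-fold mark. Its values were 1920 and 3348 CPM in the Postn/Cthrc1 group, 2177 and 3091 CPM in the other fibroblasts, and 472 and 654 CPM in the Pi16/Dpp4 group. All 3 groups had the higher value in AngII+HS, by log2 ratios of 0.80, 0.51 and 0.47.

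Decorin, the class I partner that also binds TGF-β, was at nearly the same level in both libraries. *Dcn* was at 10027 CPM in Control and 8994 CPM in AngII+HS fibroblasts (log2 ratio -0.16, interval -0.17 to -0.15). It was at 11276 and 9063 CPM in the Postn/Cthrc1 group, at 10355 and 8973 CPM in the other fibroblasts, and at 6539 and 7452 CPM in the Pi16/Dpp4 group. The differences were small and ran in opposite directions between groups. Because AngII+HS Postn/Cthrc1 cells carried more UMIs (median 5692.5 against 4494), their *Dcn* count per cell was higher, 64.7 against 54.5 UMIs, although its CPM was lower. The ratio of *Dcn* to *Lum* UMIs in all fibroblasts was 7.62 in Control and 3.30 in AngII+HS.

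Asporin, the class I protein without glycosaminoglycan chains that competes with decorin for collagen, was lower. *Aspn* was at 299 CPM in Control and 141 CPM in AngII+HS fibroblasts (log2 ratio -1.08, interval -1.15 to -1.01). It passed 2-fold in the Pi16/Dpp4 group (289 and 134 CPM) and the other fibroblasts (300 and 125 CPM), and stood just inside that mark in the Postn/Cthrc1 group (296 and 152 CPM, 1.95-fold lower), where the sign turned under 3 of 16 alternatives. The 2-fold mark was passed in 14 of 15 alternatives in the Pi16/Dpp4 group and 11 of 15 in the other fibroblasts. The 3 groups were thus alike in Control and alike in AngII+HS. The value over all fibroblasts ran from -1.27 to -0.73 and passed 2-fold in 12 of 17 alternatives. That likeness did not hold within the Postn/Cthrc1 group, as its subclusters show below.

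Osteomodulin, a keratan sulfate protein known from mineralized tissue, had the largest loss. *Omd* was at 39.0 CPM in Control and 10.1 CPM in AngII+HS fibroblasts (log2 ratio -1.94, interval -2.18 to -1.71), from 369 and 258 UMIs. In the Postn/Cthrc1 group it was at 34.6 and 8.10 CPM and in the other fibroblasts at 44.0 and 13.6 CPM. The Pi16/Dpp4 group held 12 and 1 *Omd* UMIs, a log2 ratio of -2.52 with an interval of -7.94 to 0.24.

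Osteoglycin, the class III member, was lower as well. *Ogn* was at 1269 CPM in Control and 745 CPM in AngII+HS fibroblasts (log2 ratio -0.77, interval -0.80 to -0.74). The Postn/Cthrc1 group had the wider gap, 1903 against 759 CPM (-1.33), while the other fibroblasts had 1222 against 726 CPM (-0.75) and the Pi16/Dpp4 group 908 against 681 CPM (-0.41). Of these groups the Postn/Cthrc1 cells alone passed 2-fold, in 12 of 16 alternatives. Subclusters did not follow that split. The *Col11a1*-led subcluster of the Postn/Cthrc1 group (167 and 1211 cells) had 2450 and 1512 CPM (-0.70). The *Inmt*-led subcluster of the other fibroblasts (655 and 785 cells) passed 2-fold, at 1394 and 625 CPM (-1.16). The sign turned (0.32) at a finer subclustering that left 14 Control cells in the group.

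The other 3 members were mixed. Fibromodulin guides fibril thickness together with lumican, and *Fmod* stood at 289 CPM in Control and 322 CPM in AngII+HS fibroblasts. The sign depended on the cell mix: *Fmod* was lower over the Postn/Cthrc1 group (598 and 392 CPM) and the other fibroblasts (283 and 235 CPM), and its log2 ratio was 0.16 pooled but -0.29 when weighted to the Control mix. Of the 7 larger subclusters it was higher in 2 and lower in 4. The *Inmt*-led subcluster of the other fibroblasts had 41.0 and 94.8 CPM (1.21). In the Postn/Cthrc1 group 16 alternatives ran from -2.32 to 2.1, past 2-fold higher in 2 and lower in 3. In the Pi16/Dpp4 group *Fmod* had 0 UMIs in Control and 5 in AngII+HS. With the Control count set to a floor of 3 this was 3.49-fold higher, and the exact interval of the log2 ratio started at 0.94. All 5 UMIs were in 1 cell, however, and the sign turned when the libraries were not integrated. Prolargin, which anchors basement membranes to collagen, differed little: *Prelp* was at 283 and 344 CPM over all fibroblasts (log2 ratio 0.28). Podocan, a class V protein, was at 145 and 102 CPM (*Podn*, -0.51), with 130 and 64.2 CPM in the Postn/Cthrc1 group (-1.02) and 164 and 160 CPM in the other fibroblasts (-0.03), where the sign turned under 4 of 15 alternatives, TMM scaling among them. The Postn/Cthrc1 value passed 2-fold in 10 of 16 alternatives, and its subclusters with cells in both libraries stayed under that mark (-0.93 and -0.56). Weighted to the Control mix, the ratio over all fibroblasts was -0.11.

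By group, 1 member was higher (*Lum*) and 3 were lower (*Ogn*, *Podn* and *Omd*) in the Postn/Cthrc1 fibroblasts, where 10.0% of 11188 genes were higher and 6.32% lower. In the other fibroblasts 0 members were higher and 2 were lower (*Aspn* and *Omd*), against 3.42% and 3.56% of 11665 genes. In the Pi16/Dpp4 fibroblasts 6 members had at least 50 UMIs, of which 1 was higher (*Lum*) and 1 lower (*Aspn*), against 1.97% and 3.83% of 4933 genes. Scaling bears on these backgrounds. TMM factors raised all log2 ratios by 0.11, 0.10 and 0.15 in the Pi16/Dpp4, other and all fibroblasts, and the share of higher genes among those past 2-fold went from 33.9% to 52.4%, from 49.0% to 59.7% and from 49.6% to 60.6%. Leaving mitochondrial genes out of the totals shifted the ratios of these groups by -0.01 or -0.02.

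**Figure D2:**
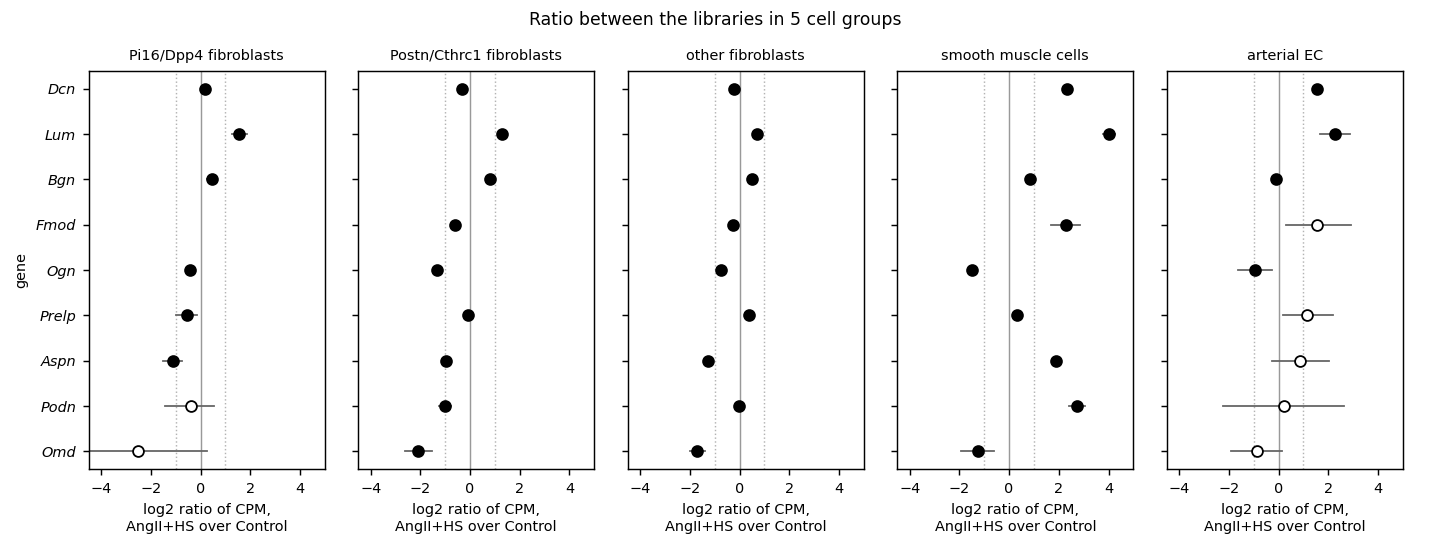
Log2 ratio of CPM, AngII+HS over Control, for each gene in 5 cell groups, with 95% exact intervals as lines cut at the axis ends; filled points had at least 50 UMIs, open points fewer, and dotted lines mark 2-fold. *Lum* lies right of 0 in all 5 groups and *Ogn* and *Omd* left of it, while *Aspn* and *Podn* are left of 0 in fibroblasts but at 1.87 and 2.74 in smooth muscle cells. The *Omd* points of Pi16/Dpp4 and arterial cells are open, and their intervals cross 0.

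Fibroblast groups differed more from each other in *Lum*, *Bgn* and *Fmod* than in *Dcn*. In Control, *Lum* was 8.29-fold and *Bgn* 4.07-fold higher in Postn/Cthrc1 than in Pi16/Dpp4 fibroblasts, against 1.72-fold for *Dcn*. In AngII+HS the folds were 6.77, 5.12 and 1.22. *Aspn* was nearly even between these groups, at 1.02-fold in Control and 1.13-fold in AngII+HS. Against smooth muscle, fibroblasts held 468-fold more *Dcn* (CPM) in Control and 83.8-fold more in AngII+HS, and for *Aspn* 11.7-fold and 1.52-fold. Smooth muscle *Dcn* was at 0.625 and 0.849 times the CPM of T, NK and B cells. The *Dcn* folds are thus taken against levels under the free RNA measure. For *Bgn* the fibroblast level was 0.956 and 0.863 times that of smooth muscle, and for *Ogn* 0.968 and 1.62 times.

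The same contrast was read in the 7 fibroblast subclusters with at least 50 cells in each library. *Lum* and *Bgn* were higher in AngII+HS in 7 of 7, with log2 ratios of 0.33 to 1.8 and 0.35 to 0.94. *Ogn* and *Omd* were lower in 7 of 7, from -1.68 to -0.32 and from -2.52 to -1.22. *Dcn* was lower in 6 and *Prelp* higher in 6 of 7, both with the Pi16/Dpp4 cells as the exception. These subclusters share 1 library per condition, so they are not replicates of the treatment.

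*Aspn* divided the Postn/Cthrc1 fibroblasts. In the subcluster led by *Saa3*, *Sfrp1* and *Wnt4* (71 Control and 668 AngII+HS cells) it was at 556 and 99.6 CPM, a log2 ratio of -2.48. In the subcluster led by *Col11a1*, *Slc24a3* and *Thbs2* (167 and 1211 cells) it was at 151 and 254 CPM, a log2 ratio of 0.75. *Fmod* did the reverse, at 80.8 and 362 CPM in the former and 918 and 569 CPM in the latter. A further subcluster of 1 Control and 197 AngII+HS cells, led by *Spp1*, *Ereg* and *Mmp13*, held less *Dcn* than the 7 larger subclusters in AngII+HS, 4782 CPM against 7452 to 10982 CPM. *Ogn* was at 31.1 CPM, *Aspn* at 42.5 CPM and *Omd* at 0.337 CPM, though *Lum* was at 2548 and *Bgn* at 3239 CPM. It had no Control counterpart to compare.

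**Figure D3:**
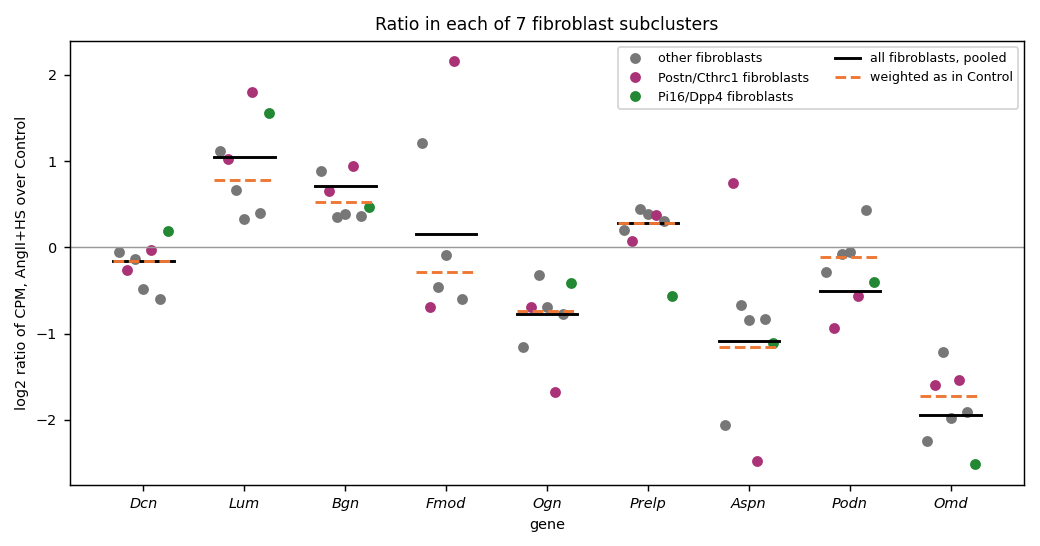
Log2 ratio of CPM, AngII+HS over Control, in each of 7 fibroblast subclusters (points, coloured by fibroblast group), with the pooled ratio of all fibroblasts (black line) and the ratio weighted to the Control mix of subclusters (dashed orange line). All *Lum* and *Bgn* points lie above 0 and all *Ogn* and *Omd* points below it, while *Aspn* runs from -2.48 to 0.75 and *Fmod* from -0.69 to 2.16.

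Smooth muscle cells had another pattern. *Bgn* and *Ogn* are the members they make in quantity, and these moved apart: *Bgn* was higher and *Ogn* lower in AngII+HS. *Aspn* and *Podn*, low over Control smooth muscle as a whole, were several times higher. By the 2-fold rule 5 members were higher (*Dcn*, *Lum*, *Fmod*, *Aspn* and *Podn*) and 2 were lower (*Ogn* and *Omd*), where 4.86% of 13682 genes were higher and 8.27% lower. The median log2 ratio of the 9 members was 1.87, against -0.03 over all genes. Of the 5 higher members, *Dcn*, *Lum* and *Fmod* stood at 0.849, 1.10 and 1.10 times the CPM of T, NK and B cells in AngII+HS. *Dcn* and *Lum* were also higher in AngII+HS in T, NK and B cells, where *Fmod* had too few UMIs for the rule, as given below. Members made up 0.353% of smooth muscle UMIs in Control and 0.461% in AngII+HS.

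*Bgn* was at 2039 CPM in Control smooth muscle and 3698 CPM in AngII+HS smooth muscle, 1.81-fold higher (log2 ratio 0.86, interval 0.84 to 0.88). *Ogn* was at 1310 and 460 CPM, 2.85-fold lower (-1.51, interval -1.57 to -1.46), or 13.6 and 3.68 UMIs per cell. The shift thus went the same way for both as in fibroblasts. In 6 of 6 smooth muscle subclusters with at least 50 cells per library *Ogn* was lower, with log2 ratios from -3.03 to -1.06, and *Bgn* was higher in 5 of 6. The exception was the subcluster led by *Pln*, *S1pr3* and *Nrarp* (152 and 130 cells), with *Bgn* at 1518 and 859 CPM. *Prelp* was at 120 and 149 CPM (0.32), and *Omd* at 7.77 and 3.28 CPM from 421 and 21 UMIs (-1.24).

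*Aspn* was at 25.4 CPM in Control and 93 CPM in AngII+HS smooth muscle cells, a log2 ratio of 1.87 (interval 1.73 to 2.01). T, NK and B cells had 4.16 and 3.95 CPM, so the AngII+HS level in smooth muscle was 23.5-fold above the free RNA measure. *Podn* was at 3.14 and 20.9 CPM (2.74, interval 2.40 to 3.07), against 5.19 and 2.57 CPM in T, NK and B cells. Neither had a higher CPM in AngII+HS in T, NK and B cells. Those values rest on 4 and 20 *Aspn* and 5 and 13 *Podn* UMIs. The intervals of their log2 ratios, -1.65 to 1.94 and -2.60 to 0.83, crossed 0. Over all fibroblasts both had the lower value in AngII+HS, although *Podn* was nearly level in the other fibroblasts and single fibroblast subclusters went the other way (*Aspn* 0.75, *Podn* 0.43). *Aspn* had its highest smooth muscle level in the *Pln*-led subcluster, at 341 and 441 CPM. The subcluster led by *Fgf14*, *Col12a1* and *Sparcl1* (887 and 76 cells) had 43.2 and 195 CPM. With smooth muscle subclusters weighted to the Control mix, a check added after seeing the data, the log2 ratios of *Aspn* and *Podn* were 1.39 and 2.64.

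*Dcn* and *Lum* were also higher in AngII+HS in T, NK and B cells. *Fmod* had 2 and 31 UMIs there, with a log2 ratio of 1.56 and an interval of -0.41 to 4.67. For *Dcn*, *Lum* and *Fmod* the comparison with smooth muscle depended on the scale. *Dcn* was at 21.4 CPM in Control and 107 CPM in AngII+HS smooth muscle, where T, NK and B cells had 126 CPM. *Lum* was at 4.11 and 67.3 CPM, against 61.3 CPM in AngII+HS T, NK and B cells. *Fmod* was at 1.38 and 6.71 CPM, against 6.13 CPM. In CPM these 3 were at 0.849, 1.10 and 1.10 times the level of T, NK and B cells. Smooth muscle cells were deeper, however (median 7521 against 2142 UMIs in AngII+HS), and per cell they held more: *Dcn* was at 0.859 against 0.303 UMIs, *Lum* at 0.538 against 0.147 and *Fmod* at 0.0537 against 0.0147. Beyond the difference in T, NK and B cells, the gain from Control to AngII+HS was 0.476 *Dcn* UMIs per cell (interval 0.391 to 0.561, normal approximation), 0.379 *Lum* UMIs (0.320 to 0.437) and 0.0333 *Fmod* UMIs (0.0123 to 0.0542). In AngII+HS *Dcn* per *Lum* UMI was 1.6 (interval 1.41 to 1.81) against 2.07 (1.8 to 2.37) in T, NK and B cells. It was 1.58 in dendritic cells, 1.8 in macrophages and 2.44 in plasma cells. Plasma cells of AngII+HS were deeper still (170 cells, median 10323.5 UMIs). They held 237 *Dcn* and 97 *Lum* UMIs in total, against 688 and 431 in the 801 smooth muscle cells. Per cell the plasma cells thus held more of both than smooth muscle cells. In CPM they had *Dcn* at 131 and *Lum* at 53.7. AngII+HS neutrophils had 206 and 92.3 CPM. The part of cell depth in the per-cell differences was not tested.

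The smooth muscle subcluster led by *Vcam1*, *Timp1* and *Nxph1* (278 and 58 cells) stood apart, with *Dcn* at 131 and 530 CPM and *Lum* at 25.9 and 457 CPM. It held 288 of the 688 *Dcn* UMIs of AngII+HS smooth muscle, and *Dcn* is among the genes that lead it. Without it, a check added after seeing the data, the log2 ratios of *Dcn* and *Lum* were 2.18 and 3.45 in place of 2.33 and 4.03. Over all smooth muscle cells the 8 fibroblast markers summed to 1702 and 3901 CPM. *Pdgfra* stood at 5.48 and 6.24 CPM and *Clec3b* at 3.28 and 3.28 CPM, while *Dpt* was at 2.21 and 14.4 CPM (16.0 CPM in AngII+HS T, NK and B cells). All the others were higher in AngII+HS. *Col1a1* was at 538 and 1488 CPM, *Col3a1* at 994 and 2106 CPM and *Mfap5* at 140 and 221 CPM. *Pcolce* was at 16.2 and 45.3 CPM and *Serpinf1* at 3.54 and 15.6 CPM. The part of fibroblast RNA in the smooth muscle values was not tested further.

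Arterial endothelial cells carried *Bgn* at 2370 CPM in Control and 2176 CPM in AngII+HS (log2 ratio -0.12, interval -0.18 to -0.07). The level was 28.9-fold and 13.2-fold above T, NK and B cells. Of the 4 members with at least 50 UMIs there, 2 were higher (*Dcn* and *Lum*) and 0 were lower, where 4.93% of 8623 genes were higher and 2.99% lower. *Ogn*, at 24.6 and 12.8 CPM, was under the CPM of T, NK and B cells in both libraries, and per cell at 0.132 and 0.0721 against 0.121 and 0.0493 UMIs. *Fmod*, *Prelp*, *Aspn*, *Podn* and *Omd* held 4 to 27 UMIs per library and gave no usable ratio.

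*Dcn* was at 124 CPM in Control and 367 CPM in AngII+HS arterial endothelial cells, a log2 ratio of 1.56 (interval 1.38 to 1.75). T, NK and B cells had 34.3 and 126 CPM, so the level was 3.62-fold and 2.90-fold above them. At least 1 *Dcn* UMI was found in 24.7% of Control and 50.7% of AngII+HS arterial cells (median 4492 and 4760 UMIs), against 12.1% and 24.2% of T, NK and B cells (median 3788 and 2142 UMIs). Thinned to 1000 UMIs per cell, with 11 and 14 arterial and 3 and 78 T, NK and B cells too shallow to keep, the shares were 8.44% and 20.4% against 3.49% and 11.9%. Cells with at least 5 *Dcn* UMIs made up 3.92% and 13.4% of arterial cells, against 0 and 0.142% of T, NK and B cells. For the 0 of 232 Control T, NK and B cells, a floor of 3 cells would be a share of 1.29%, which is not an exact interval bound.

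The arterial *Dcn* difference was found in the subclusters led by *Ptprj* (118 and 379 CPM) and *Sdc4* (153 and 444 CPM). The *Dkk2*-led subcluster had 62.7 and 42.9 CPM from 23 and 12 UMIs, and there *Bgn* was at 1183 and 394 CPM. *Dcn* per *Lum* UMI was 6.69 (interval 5.53 to 8.14) in AngII+HS arterial cells, against 2.07 in T, NK and B cells and 3.30 in fibroblasts. *Lum* itself was at 11.5 and 54.8 CPM, against 7.27 and 61.3 CPM in T, NK and B cells, but per cell in AngII+HS it was at 0.308 against 0.147 UMIs. Beyond the difference in T, NK and B cells its gain was 0.13 UMIs per cell (interval 0.0649 to 0.195), and that of *Dcn* 1.23 (1.07 to 1.40). AngII+HS macrophages (median 4055 UMIs) held 0.203 *Lum* and 0.365 *Dcn* UMIs per cell. The 170 plasma cells (median 10323.5 UMIs) held 97 *Lum* and 237 *Dcn* UMIs in total, against 124 and 829 in the 402 arterial cells. Per cell the plasma cells thus held more *Lum* and less *Dcn* than arterial cells. The part of cell depth in these differences was not tested. The summed fibroblast markers were 288 and 689 CPM in arterial cells, with *Pdgfra* at 2.30 and 4.86 CPM, *Dpt* at 3.07 and 12.8 CPM and *Col1a1* at 22.7 and 206 CPM (244 CPM in AngII+HS T, NK and B cells). *Mfap5* made up 181 and 114 CPM of these sums, and it is among the genes that lead the *Ptprj*-led arterial subcluster. Every other listed marker was higher or level in AngII+HS. The smooth muscle gene *Tagln* was at 208 and 566 CPM, against 211 and 290 CPM in T, NK and B cells, and the fibroblast gene *Pi16* at 119 and 88.9 CPM, against 6.23 and 10.9 CPM. The part of RNA from these cells in the arterial *Dcn* value was not tested.

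**Figure D4:**
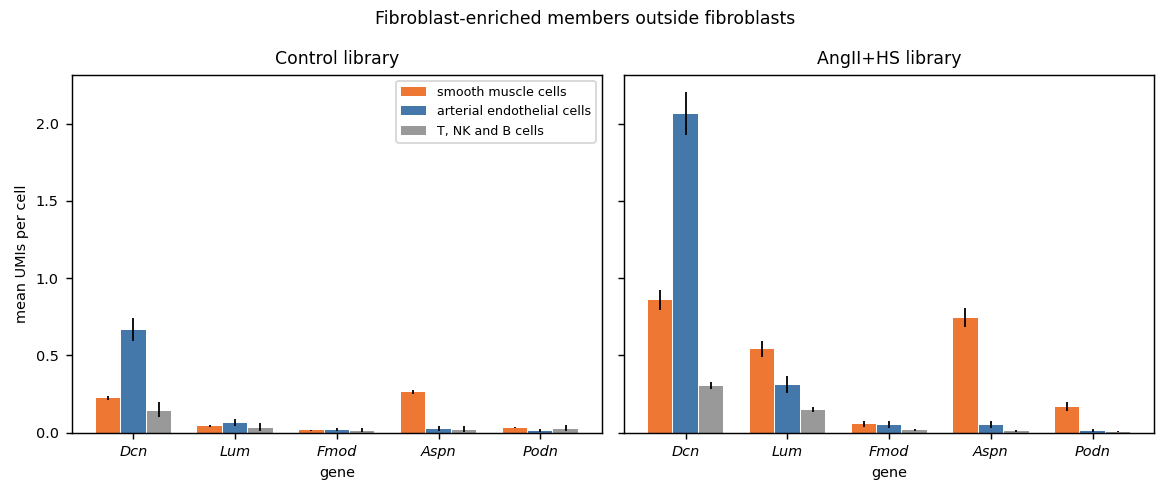
Mean UMIs per cell of 5 members in smooth muscle cells, arterial endothelial cells, and T, NK and B cells, in the Control (left) and AngII+HS (right) library; bars start at 0 and error bars are 95% exact Poisson intervals. In AngII+HS, *Dcn* reaches 2.06 UMIs per arterial endothelial cell against 0.303 per T, NK or B cell, and *Aspn* 0.744 per smooth muscle cell against 0.00948.

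The cell types that held each transcript differed between the libraries. Smooth muscle cells held 79.4% of all *Bgn* UMIs in Control and 18.5% in AngII+HS, and fibroblasts 13.2% and 63.3%. For *Ogn* the smooth muscle share was 83.6% and 11.9%, and for *Prelp* 65.5% and 8.17%. *Dcn* stayed with fibroblasts at 95.4% and 92.3%, and *Lum* at 95.1% and 89.9%. Smooth muscle cells numbered 5230 of 10269 cells in Control and 801 of 19734 in AngII+HS. Whether the tissue or its dissociation set these numbers cannot be told apart.

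**Figure D5:**
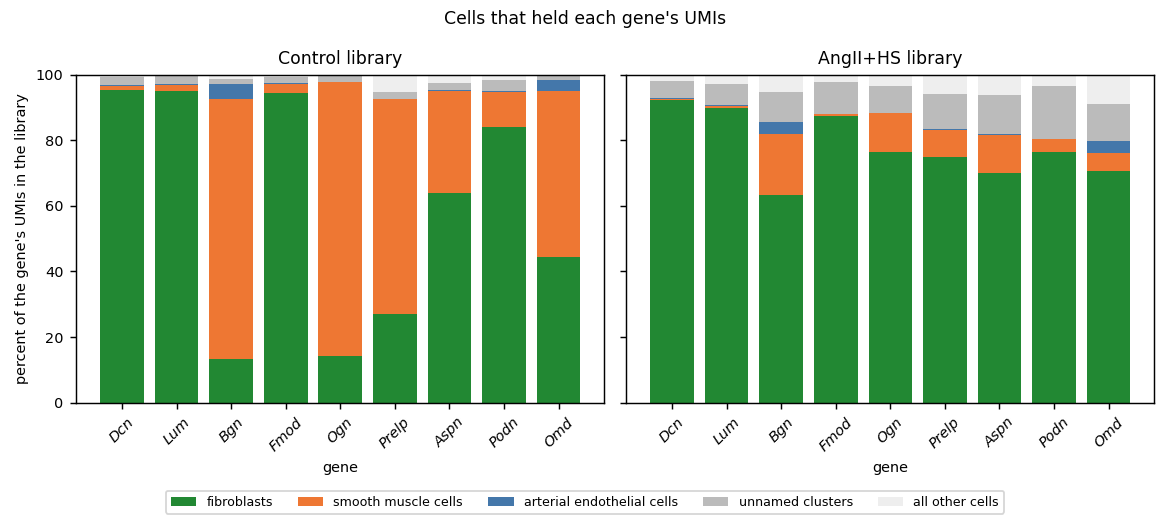
Percent of each gene's UMIs found in fibroblasts, smooth muscle cells, arterial endothelial cells, unnamed clusters and all other cells, for the Control (left) and AngII+HS (right) library. *Bgn*, *Ogn* and *Prelp* are mostly in smooth muscle in Control and mostly in fibroblasts in AngII+HS, whereas *Dcn* and *Lum* are above 89% in fibroblasts in both.

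Some members had levels in other cells of the wall. Pericytes (41 and 94 cells) held *Aspn* at 348 and 327 CPM, near the Control fibroblast level, and *Ogn* at 551 and 165 CPM (log2 ratio -1.74, interval -2.14 to -1.34). *Ogn* in neural cells was at 236 and 121 CPM, and *Prelp* in lymphatic endothelial cells at 365 and 304 CPM. *Bgn* in venous endothelial cells was at 959 and 249 CPM (-1.94). In every one of these the level was above that of T, NK and B cells in the same library.

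Over 27 points (cell groups with at least 50 cells in a library), the genes with the closest pattern were found for each member among 14395 genes. Points of a library share its depth and free RNA, so the correlations are descriptions. *Dcn* was closest to *Htra4*, *Dpt* and *Svep1* (Pearson r 0.96, 0.96 and 0.95). *Lum* was closest to *Sfrp4*, *Cpxm1* and *Mmp3* (0.95, 0.95 and 0.94), and *Bgn* to *Lox*, *Pam* and *Nupr1* (0.94, 0.93 and 0.92), where *Lox* is the collagen and elastin cross-linking enzyme. *Ogn* was closest to *Gabra3*, *Islr* and *Pdzrn3* (0.98, 0.97 and 0.95) and *Aspn* to *Prrx1*, *Plekhh2* and *Pcdh18* (0.95 each). *Podn* followed *Wnt5a*, *Gdf10* and *Twist2*, *Fmod* followed *Bdkrb1*, *Cilp* and *Shisa3*, *Prelp* followed *H6pd*, *Gm17167* and *Foxp2*, and *Omd* followed *Chrd*, *Mirg* and *AA986860*, with r of 0.86 to 0.92. Among the members, *Dcn* and *Lum* (r = 0.89) and *Aspn* and *Podn* (0.88) were the closest pairs, while the neighbours *Ogn* and *Omd* had 0.68.

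Collagens are the main partners of these proteins. In all fibroblasts 6 of 11 listed collagen genes were at least 2-fold higher and 0 lower, with a median log2 ratio of 1.01. *Col1a1*, the main chain of collagen I, was at 2966 and 14683 CPM (2.31), *Col3a1* at 2803 and 12443 CPM (2.15), *Col12a1* at 55.4 and 201 CPM (1.86), *Col1a2* at 4745 and 13122 CPM (1.47), *Col5a2* at 336 and 922 CPM (1.46) and *Col5a1* at 266 and 537 CPM (1.01). In the other fibroblasts 5 of 11 were higher, and in the Pi16/Dpp4 group 1 of 10 (*Col3a1*). *Col5a1* passed 2-fold only in the pooled fibroblasts, in no single fibroblast group. In smooth muscle 4 of 10 collagens were higher and 0 lower (*Col1a1* 1.47, *Col6a3* 1.34, *Col5a2* 1.21 and *Col3a1* 1.08). In arterial endothelial cells 6 of 7 were higher and 0 lower, with *Col1a1* and *Col3a1* (270 CPM) near the CPM of T, NK and B cells (244 and 240 CPM) and *Col5a2* well above it at 235 and 659 CPM.

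Of 9 genes for fibril processing, 2 were higher in fibroblasts, *Lox* (187 and 443 CPM, log2 ratio 1.24) and the lysyl hydroxylase *Plod2* (210 and 460 CPM, 1.13). *Pcolce2*, an enhancer of procollagen cleavage, was lower, at 541 and 142 CPM (-1.93). Among single fibroblast groups, *Lox* passed 2-fold only in Pi16/Dpp4 cells, and *Plod2* and *Pcolce2* only in Postn/Cthrc1 cells. Smooth muscle cells had 2 of 9 higher (*Loxl2* 1.6 and *Pcolce* 1.48). In arterial cells 1 of 6 was higher (*Bmp1* 1.09) and 1 lower (*Pcolce2* -2.17).

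Enzymes known to cut these proteoglycans were higher or near level, save *Tll1* in the other fibroblasts. In fibroblasts 3 of 10 were higher and 0 lower: *Mmp2* at 300 and 730 CPM (1.28), *Mmp3* at 1025 and 2572 CPM (1.33) and *Mmp13* at 0.212 and 108 CPM from 2 and 2757 UMIs (9.0, interval 7.15 to 12.05). *Mmp13* is among the genes that lead the *Spp1*-led subcluster. By group, 5 of 10 were higher in Postn/Cthrc1 cells (*Tll1*, *Mmp2*, *Mmp3*, *Mmp13* and *Mmp14*) and 1 of 8 in Pi16/Dpp4 cells (*Mmp2*). In the other fibroblasts 0 of 9 were higher and 1 was lower (*Tll1*). In smooth muscle 4 of 8 were higher, among them *Adamts4* at 15.3 and 92.9 CPM (2.61) and *Htra1* at 232 and 521 CPM (1.17), and *Mmp3* and *Mmp2* had 2.51 and 1.82. Arterial cells had 4 of 7 higher (*Mmp3* 3.33, *Mmp2* 2.13, *Mmp14* 2.11 and *Bmp1* 1.09). The smooth muscle and arterial values of these enzymes were not set against T, NK and B cells. The part of fibroblast RNA in them was not tested.

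Genes that build the sugar chains varied less. Of 6 linker genes 0 passed 2-fold in fibroblasts, where *Xylt1* (-0.79) and the xylose kinase *Fam20b* (0.12) had most UMIs, and in smooth muscle 1 did, *Xylt1* itself, which starts the chain, at 76.9 and 28.1 CPM (-1.45). Of 14 genes for chondroitin and dermatan chains, 2 were higher in fibroblasts: *Csgalnact1*, which commits the chain to chondroitin, at 9.83 and 88.7 CPM (3.17), and the sulfotransferase *Chst11* at 86.8 and 184 CPM (1.08). *Chst11* passed 2-fold in the pooled fibroblasts but in no single fibroblast group. In smooth muscle 3 of 14 were higher (*Chst11* 1.99, *Chpf2* 1.6 and *Chst12* 1.16), and in arterial cells 1 of 10 (*Csgalnact1* 1.81). Of 6 keratan sulfate genes in fibroblasts 1 was lower, the sulfotransferase *Chst1* at 12.3 and 3.62 CPM (-1.76), again in the pooled fibroblasts only. Of 5 in smooth muscle 0 passed, and *B4galt1* (-0.58) and *B3gnt2* (0.46) had most UMIs.

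Among other genes of the family 5 of 9 had enough UMIs in fibroblasts, and 1 was lower (*Optc*, 5.50 and 2.32 CPM, -1.24). *Ecm2*, which adjoins *Aspn* on chromosome 13 at 9.64 kb, was at 199 and 121 CPM in fibroblasts (-0.72), 132 and 118 CPM in smooth muscle (-0.16) and 127 and 70.3 CPM in arterial cells (-0.85). It was chosen after its values were seen. In smooth muscle 1 of 4 was lower (*Chadl*, -1.42), and *Optc* stood at 105 and 52.9 CPM (-0.99). Of the other matrix proteoglycans in fibroblasts, 3 of 7 were higher, *Acan* at 0.529 and 13.7 CPM (4.69), *Srgn* at 28.9 and 143 CPM (2.31) and *Prg4* at 96.2 and 417 CPM (2.11), and *Spock2* was lower at 67.9 and 13.4 CPM (-2.34). In smooth muscle 2 of 7 were higher (*Srgn* 3.65 and *Acan* 2.46) and 1 lower (*Hapln3* -2.09), and in arterial cells 2 of 4 were higher (*Vcan* 1.95 and *Hspg2* 1.10) and 1 lower (*Spock2* -1.99). *Srgn* is also a product of leukocytes.

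Some signalling partners passed 2-fold, in both directions in fibroblasts, where 6.16% of all genes were higher and 6.25% lower. In arterial cells those shares were 4.93% and 2.99%. Of 6 ligands in fibroblasts, *Tgfb2* was higher (164 and 344 CPM, 1.07) and *Bmp2* (86.8 and 31.8 CPM, -1.45) and *Bmp4* (75.6 and 37.8 CPM, -1.0) were lower. *Tgfb2* passed 2-fold only in the pooled fibroblasts, where Postn/Cthrc1 cells made up 9.56% and 48.0%, and in no single fibroblast group. Of 6 in smooth muscle 0 passed, with *Ccn2* (1425 and 2617 CPM, 0.88) and *Tgfb2* (336 and 209 CPM, -0.68) holding most UMIs, and 3 of 5 were higher in arterial cells (*Ccn2* 1.40, *Tgfb2* 1.28 and *Bmp4* 1.10). Of 10 receptors in fibroblasts, *Cd14* (5.39 and 29.3 CPM, 2.44) and *Tlr2* (11.3 and 23.1 CPM, 1.03) were higher. *Tlr4* (44.7 and 20.3 CPM, -1.14) and *Met* (8.99 and 2.87 CPM, -1.65) were lower in the pooled fibroblasts, but neither passed 2-fold in any single fibroblast group. In smooth muscle 1 of 10 was higher (*Cd14* 3.45), and in arterial cells 2 of 10 (*Cd14* 3.71 and *Kdr* 2.53). *Cd14* is also abundant in macrophages, whose 6 markers summed to 18.6 and 59.5 CPM in fibroblasts, 10.5 and 38.9 CPM in smooth muscle and 19.6 and 69.9 CPM in arterial cells. The part of macrophage RNA in the *Cd14* values was not tested.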

How the data were processed

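Single cells of the suprarenal abdominal aorta were measured in 1 Control and 1 AngII+HS droplet library. The deposited values were raw UMI counts per gene and cell, made by the authors with Cell Ranger 8.0.1 per the file headers, on the build mm10 per the labels. Barcodes were retained from 500 UMIs and 200 detected genes upwards when mitochondrial transcripts stayed below 20%, and Scrublet scores (scanpy 1.11.5) were used to remove 0.8% doublets per 1000 cells, 1019 Control and 4826 AngII+HS cells. This left 75265697 and 80416904 UMIs. Libraries were integrated and clustered in Seurat 5.3.0 (R 4.3.3) on 2000 variable genes without the members, with 30 principal components and resolution 0.8. Fibroblasts, smooth muscle and endothelial cells were then subclustered (20 components, resolution 0.4). Clusters were named from fixed markers, and a fibroblast subcluster took a group's name at a list score of at least 0.5. Named mural subclusters were called smooth muscle unless the pericyte score was the higher one and at least 0.5. Subclusters whose leading genes went against the name stayed unnamed.

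Counts were summed per cell group and library and divided by the group's total (CPM). Poisson intervals for levels and conditional binomial intervals for ratios were exact (scipy 1.17.1, numpy 2.4.6, Python 3.11.15). Intervals of differences in UMIs per cell used a normal approximation. All cover counting error only. A gene was called where its CPM differed at least 2-fold with at least 50 UMIs over both libraries. No p-value was computed, since each condition was 1 library. Fold changes against 0 UMIs were taken against a floor of 3 counts. For shares of cells, each cell was also thinned to 1000 UMIs. TMM factors came from edgeR 4.0.16, and figures from matplotlib 3.10.9. The scripts were tested on simulated counts. All 9 members are described in every group. Of each pathway list, the genes past 2-fold are named, or the 2 with most UMIs where none passed, in some groups only by their count. The 3 closest genes to a member were taken by Pearson's r of log2(CPM + 1). The members and lists were chosen with earlier results of these data known. Gene positions came from GENCODE on GRCm39, where 33185 of 33696 gene IDs were found.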

Additional observations from a re-analysis of the deposited data

Results flagged for a closer look

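*Aspn* and *Podn* passed 2-fold in opposite directions in smooth muscle cells and in fibroblasts. The log2 ratio of *Aspn*, AngII+HS over Control, was 1.87 in smooth muscle cells, -1.11 in Pi16/Dpp4 fibroblasts and -1.27 in other fibroblasts. That of *Podn* was 2.74 in smooth muscle cells and -1.02 in Postn/Cthrc1 fibroblasts. The latter passed 2-fold in 10 of 16 alternatives, its subclusters with cells in both libraries had -0.93 and -0.56, and the other fibroblasts had -0.03. With 1 library per condition the difference between the cell types was not tested.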

How the results depend on the processing

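The counts of members at least 2-fold higher or lower were recomputed under 20 settings, 16 of them planned. Leaving out the *Vcam1*-, *Pln*-, *Spp1*- or *Dkk2*-led subcluster was chosen after seeing the data, as was the use of the planned subcluster weighting in smooth muscle. Of these counts 155 stayed within 1.5 times the reported one and 39 moved. In Pi16/Dpp4 fibroblasts the higher count was 0 without integration, 0 with matrix genes left out of clustering, 2 at subclustering resolution 0.8 and 2 with no filter on low counts. The lower count there was 3 without integration, 2 at clustering resolutions 0.4 and 1.2, 2 at subclustering resolution 0.8, 2 with no filter and 0 with TMM factors. In Postn/Cthrc1 fibroblasts the higher count was 3 with doublets kept, 3 without integration (1 Control cell left), 2 at resolution 0.4 and 0 with matrix genes left out. The lower count there was 5 without integration and 1 at subclustering resolution 0.8, with double the doublets removed, with equal weight per cell and when thinned. In other fibroblasts the lower count was 1 with doublets kept, without integration, at resolution 0.4 and at subclustering resolution 0.8. Over all fibroblasts the higher count was 0 with double the doublets removed, equal weight per cell, thinning or subclusters weighted as in Control. The lower count there was 1 with double the doublets removed, TMM factors, equal weight, thinning or without the *Spp1*-led subcluster. In smooth muscle the lower count was 1 when thinned. In arterial endothelial cells the lower count was 1 with doublets kept, double removed, equal weight or thinning, and the higher count was 1 at a minimum of 200 UMIs and 4 with no filter. Of the log2 ratios 586 stayed within the counting interval of the reported value and 279 moved outside it. Among values past 2-fold 1 changed sign: *Ogn* in Postn/Cthrc1 fibroblasts was 0.316 at subclustering resolution 0.8, which left 14 Control cells in the group. Values under 2-fold changed sign more often, as *Prelp* did in Postn/Cthrc1 fibroblasts under 6 of 16 alternatives. The causes were not tested. In smooth muscle, *Dcn*, *Lum*, *Aspn* and *Podn* stayed past 2-fold higher and *Ogn* past 2-fold lower (-1.66 to -1.35) in 18 of 18 alternatives. *Omd* over all fibroblasts stayed past 2-fold lower in 17 of 17 (-2.34 to -1.58), and *Dcn* in arterial endothelial cells past 2-fold higher in 16 of 16 (1.47 to 1.81). No paired analysis was possible because each condition was 1 library.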
